A study of Mus musculus with 9 samples.

Results

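The 36 glycolysis and hypoxia response genes described here encode the machinery that takes up glucose, breaks it down to lactate and adjusts both to oxygen. They were chosen by gene symbol, with earlier results of these data known. They comprise 2 glucose transporters, 16 enzymes of the glycolytic steps and of lactate formation and 2 enzymes that set fructose-2,6-bisphosphate. Also among them are 3 pyruvate dehydrogenase kinases and 3 subunits of the hypoxia-inducible factors (HIFs). The others are 5 genes that control HIF and 5 genes known to be induced by hypoxia. Of the 23393 genes listed in each library, these 36 were all found, had counts in every one of the 9 libraries and passed the filter on low counts. RNA was sequenced from regulatory T cells (Tregs), CD4 T cells that express Foxp3 and hold immune responses in check, sorted from mouse spleen. The labels divide the 9 samples into 3 wild-type samples with low ST2 (ST2-low), 3 wild-type samples with high ST2 (ST2-high) and 3 samples of the genotype ST2KO. ST2, encoded by Il1rl1, is the receptor for interleukin-33, and the series is about ST2-bearing Tregs in kidney injury. Mouse strain, age, any injury or treatment of the mice, the sorting strategy, the deleted allele, whether ST2KO cells were selected for ST2 and whether replicates were separate animals are all not given in the sources used here. The p-values then measure only how these samples spread, and that spread may be technical.

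Glycolysis turns glucose into pyruvate, and lactate dehydrogenase then turns pyruvate into lactate, while pyruvate dehydrogenase kinases hold back the entry of pyruvate into mitochondria. HIF is a pair of an oxygen-regulated alpha subunit (HIF-1alpha from Hif1a, HIF-2alpha from Epas1) and the stable partner ARNT. With oxygen, prolyl hydroxylases of the Egln family mark the alpha subunit, the ubiquitin ligase subunit VHL binds the mark and the protein is destroyed, so that much of HIF control acts on protein and is not seen in transcript levels. Without oxygen, HIF binds a short core sequence near genes for glucose transporters, glycolytic enzymes and others. In T cells, glycolysis and HIF-1alpha are also raised by receptor stimulation, and both have been linked to Treg function and stability.

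Total counts were 16223242 to 29320699 in the wild-type libraries and 11659659 to 43406680 in ST2KO, and the 36 genes took 0.280% to 0.339% of them. Levels are given as CPM, counts relative to the library total, scaled with TMM factors, as mean ± SD with n = 3 a group. Il1rl1, whose product divides the wild-type groups, was at 2.62 ± 0.84 CPM in ST2-low, at 494.7 ± 66.0 CPM in ST2-high and at 67.6 ± 14 CPM in the libraries labelled ST2KO, and because counts per gene do not show the exons read, this does not check the knockout label. Foxp3 was at 461.6 ± 16.3, 567.7 ± 47.8 and 430.2 ± 17.6 CPM in the same order, so the labelled cell type had its defining transcript in each group. ST2-high replicate 3 stood apart from its group, with a chi-square per gene of 17.4 and 21.2 against replicates 1 and 2. No other pair of replicates exceeded 8.64. The measure included the ribosomal RNA precursor Rn45s, at 16.7% of counts in ST2-high replicate 3 and 13.0% and 12.1% in replicates 1 and 2. How much of the chi-square came from Rn45s was not tested. Markers of myeloid and dendritic cells, 14 genes found in the files, summed to 161 to 210 CPM in ST2-low, 148 to 149 CPM in ST2-high and 45.3 to 60.2 CPM in ST2KO. Their part in the results was not tested. The 7 Treg markers summed to 4760 to 4893 CPM in ST2-low, 5387 to 5649 CPM in ST2-high and 3851 to 3957 CPM in ST2KO. Ctla4, at 1996, 2123 and 786.3 CPM on average, had the largest fall among them in ST2KO. From ST2-high to ST2KO, Ikzf2 (1430 to 1237 CPM) and Foxp3 fell as well. Against ST2-low, Ikzf2, Il2ra and Cd3d were higher in ST2KO, Ctla4 was lower, and Foxp3, Cd4 and Cd3e did not pass; against ST2-high, Il2ra and Cd3d were higher, and Ctla4, Ikzf2 and Foxp3 lower.

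ST2KO had lower levels of 20 of the 36 genes when set against ST2-low and of 20 when set against ST2-high. The wild-type groups differed in 12, with 9 higher and 3 lower in ST2-high. In ST2-high against ST2-low, 9 of the 36 genes were higher (25%, where 15.3% of all 12219 tested genes were), 3 were lower (8.33%, against 10.8% of all) and 24 did not pass. Calls throughout are those of edgeR's quasi-likelihood test at an adjusted p (Benjamini-Hochberg over the 12219 genes) under 0.05. In ST2KO against ST2-low, 6 were higher (16.7%, against 33% of all) and 20 were lower (55.6%, against 29.3% of all). In ST2KO against ST2-high, 7 were higher (19.4%, against 31.9% of all) and 20 were lower (55.6%, against 32.6% of all). The median log2 fold change of the 36 genes was 0.06 in ST2-high against ST2-low, -0.30 in ST2KO against ST2-low and -0.32 for ST2KO against ST2-high, beside -0.0024, 0.05 and 0.02 over all tested genes. All 3 libraries of ST2KO lay above all 3 of ST2-low for 7 of the 36 genes and below for 19, where 36% and 31.2% of all tested genes did so. Against ST2-high these counts were 7 and 21, beside 33.5% and 33.3% of all tested genes, and for ST2-high against ST2-low they were 11 and 8, beside 20.5% and 17.6%. The comparisons share libraries in pairs, so their values are given side by side and are not independent. Because the genes were chosen with earlier results of these data known, their shares are descriptions only.

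Few of the 36 genes differed by at least 2-fold. Egln3 did so in ST2-high against ST2-low, where 3.16% of all genes were that much higher and 0.368% that much lower. Epas1 and Hk2 were at least 2-fold lower in ST2KO than ST2-low (6.64% of all genes were, and 6.86% were that much higher). Epas1, Egln3, Ndrg1 and Hk2 were at least 2-fold lower in ST2KO than ST2-high (8.86% of all genes), and Pdk1 was at least 2-fold higher (6.83% of all). Without ST2-high replicate 3, or without ST2KO replicate 2, Pdk1 was just under that mark at a log2 fold change of 0.98. The plot of log2 fold changes shows all 36 genes in the 3 comparisons.

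**Figure D1:**
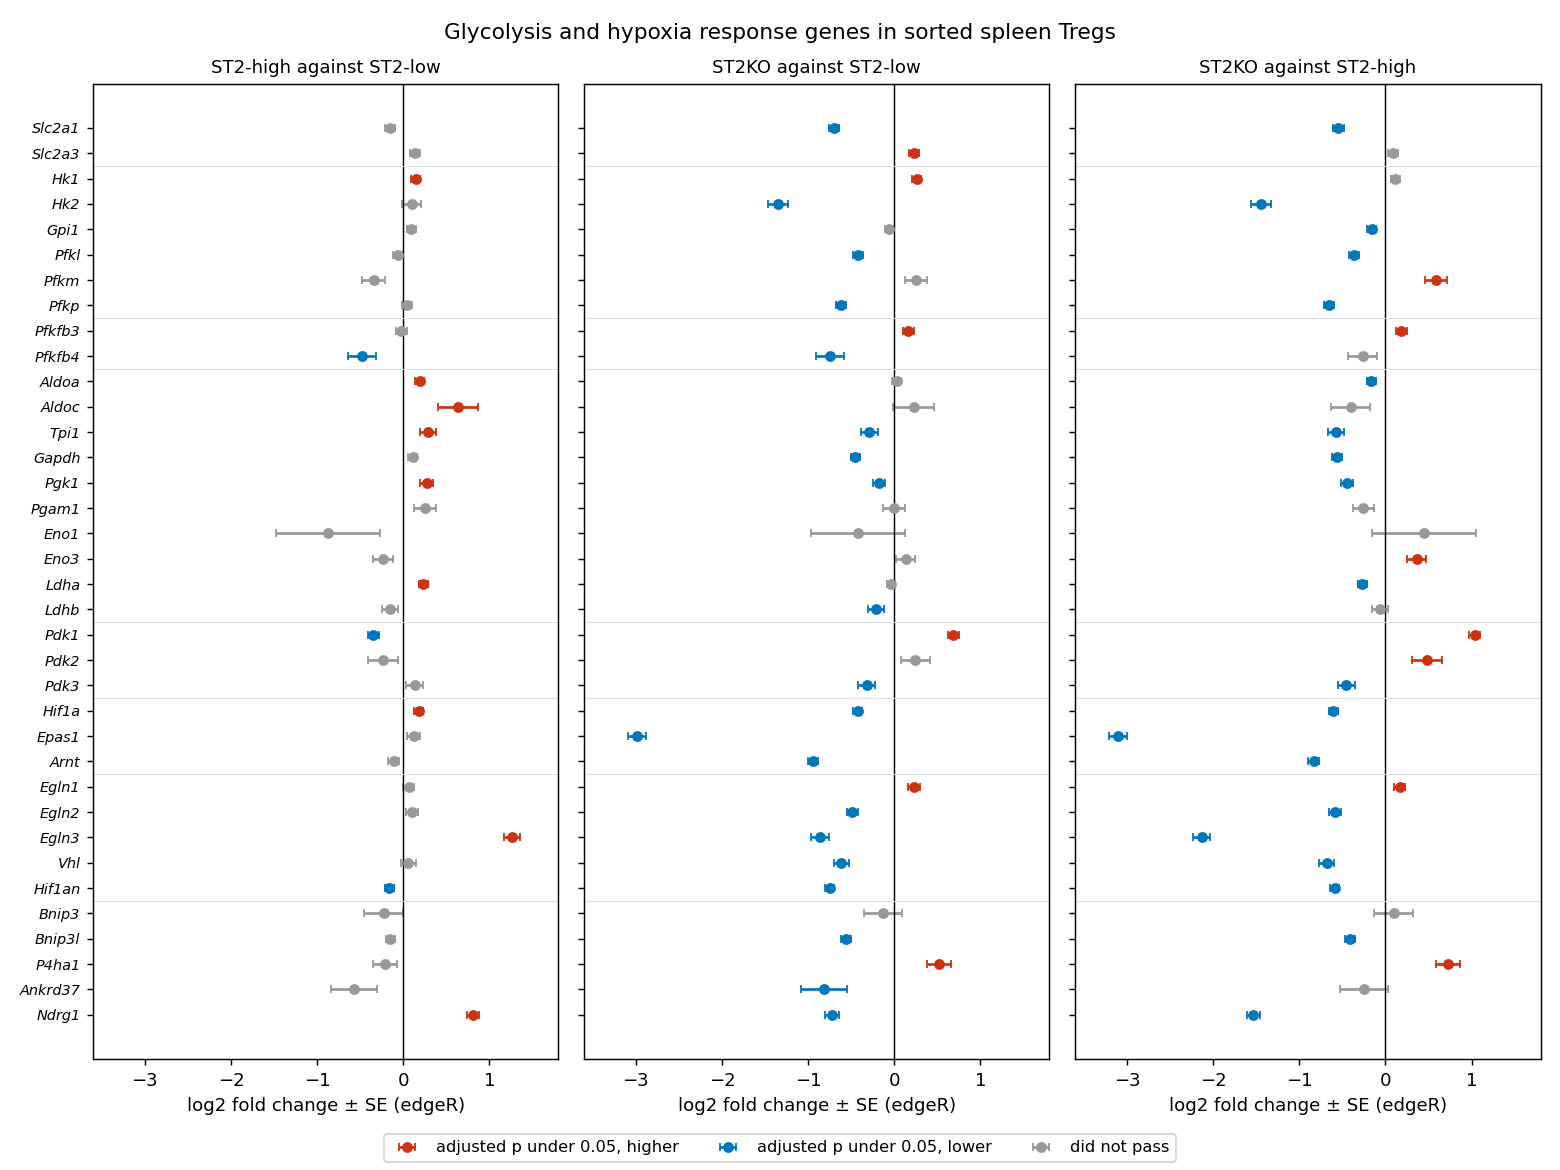
Log2 fold change (horizontal axis, with standard error bars) of each of the 36 genes (rows, grouped by role) in ST2-high against ST2-low, ST2KO against ST2-low and ST2KO against ST2-high. Red points were called higher and blue points lower by edgeR's quasi-likelihood test at an adjusted p under 0.05, and grey points did not pass; Epas1 lies farthest left in both ST2KO panels, at -2.99 and -3.10, and Egln3 farthest right in the first, at 1.26.

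The counts for ST2-high against ST2-low moved with the choice of scaling and of libraries. With DESeq2's size factors 7 genes were higher and 6 lower, with upper-quartile factors 8 and 5, and with DESeq2's Wald test 6 and 5. Leaving out ST2-low replicate 2 gave 5 higher and 2 lower, leaving out ST2-high replicate 3 gave 10 and 6, and leaving out ST2KO replicate 3 gave 9 and 5. Leaving out ST2-low replicate 1, ST2-high replicate 1 or ST2-high replicate 2 each gave 6 higher. Of the 12 called genes, 5 (Pgk1, Ldha, Pdk1, Egln3 and Ndrg1) were called under all 16 alternatives. In the ST2KO comparisons 20 of 26 and 21 of 27 called genes were. The number higher in ST2KO than ST2-high was 4 without ST2-high replicate 1 and 4 without ST2KO replicate 1.

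The promoter sequences of these genes were searched for the core of the hypoxia response element, the site that HIF is known to bind. The core was searched in its more common spelling, ACGTG, which reads as CACGT on the opposite strand. It was also searched in its second spelling, GCGTG, which reads as CACGC on the opposite strand. The palindrome CACGTG holds the first spelling on both strands and so counts as 2 matches. In RefSeq's promoter table (GRCm38.p6; 250 bases before to 50 bases after each annotated start), 32 of the 36 genes had a total of 46 windows, and Slc2a3, Epas1, Bnip3l and Ndrg1 are only named here. A match was present in 37 of the 46 windows (80.4%), in 61.7% of the 11563 windows of tested genes and in 43.8% of all 32851 windows of the same length. The median GC content of these sets was 61.7%, 60.7% and 52.7%. ACGTG in either direction was in 50% of the windows of the 36 genes and 25.6% of those of tested genes, and GCGTG in 60.9% and 50.1%. A match is a description of letters and not evidence of a bound site.

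Single windows of Hk2, Egln3, Pdk1, Ldha and Hif1an, genes picked by name, are printed here. Ldha had the window with the most matches of the 36 genes. All are in RefSeq's GRCm38.p6 and written 5' to 3' along the gene's own strand, with matches in capitals. The Hk2 window (chr6:82774405-82774704, minus strand) had 2 matches, the Egln3 window (chr12:54203825-54204124, minus strand) 1, the Pdk1 window (chr2:71872974-71873273, plus strand) 2, the Ldha window (chr7:46845554-46845853, plus strand) 7 and the Hif1an window (chr19:44562604-44562903, plus strand) 0. The table holds a second window for Pdk1 (chr2:71874654-71874953), with 0 matches, and for Ldha (chr7:46846832-46847131), with 2, and neither is printed.
Hk2: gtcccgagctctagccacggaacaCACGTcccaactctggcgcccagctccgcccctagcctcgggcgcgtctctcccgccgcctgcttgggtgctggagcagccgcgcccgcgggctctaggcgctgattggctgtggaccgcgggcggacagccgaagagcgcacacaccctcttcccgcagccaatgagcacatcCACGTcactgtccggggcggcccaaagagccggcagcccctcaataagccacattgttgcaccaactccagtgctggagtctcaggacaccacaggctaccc
Egln3: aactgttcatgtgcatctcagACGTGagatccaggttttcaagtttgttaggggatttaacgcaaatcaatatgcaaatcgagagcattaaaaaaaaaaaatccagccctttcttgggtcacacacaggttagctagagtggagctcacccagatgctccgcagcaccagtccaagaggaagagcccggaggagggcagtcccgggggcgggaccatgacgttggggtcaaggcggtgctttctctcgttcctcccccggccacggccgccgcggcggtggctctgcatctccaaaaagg
Pdk1: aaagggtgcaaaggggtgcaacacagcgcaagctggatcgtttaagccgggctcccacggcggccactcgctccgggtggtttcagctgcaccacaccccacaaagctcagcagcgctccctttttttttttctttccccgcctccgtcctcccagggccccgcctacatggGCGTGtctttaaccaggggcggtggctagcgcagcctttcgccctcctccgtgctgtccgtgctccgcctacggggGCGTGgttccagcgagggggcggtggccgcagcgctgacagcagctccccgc
Ldha: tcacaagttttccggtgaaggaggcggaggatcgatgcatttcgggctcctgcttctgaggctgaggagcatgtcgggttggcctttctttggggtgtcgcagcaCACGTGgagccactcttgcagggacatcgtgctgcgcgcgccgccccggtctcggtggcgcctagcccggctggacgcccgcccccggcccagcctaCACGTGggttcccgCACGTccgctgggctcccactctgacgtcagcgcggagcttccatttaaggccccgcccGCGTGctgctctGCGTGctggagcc
Hif1an: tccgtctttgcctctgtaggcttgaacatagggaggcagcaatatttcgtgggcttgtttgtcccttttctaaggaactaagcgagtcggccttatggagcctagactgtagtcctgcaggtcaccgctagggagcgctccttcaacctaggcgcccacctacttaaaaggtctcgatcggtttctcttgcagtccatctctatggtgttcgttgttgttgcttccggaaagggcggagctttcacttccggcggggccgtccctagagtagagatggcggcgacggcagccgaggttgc

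The genes of these windows differed in direction. Egln3, with 1 match, was higher in ST2-high and lower in ST2KO. Pdk1, with 2 in the window shown and 0 in its second, was lower in ST2-high and higher in ST2KO, and Hk2, also with 2, was lower in ST2KO. Ldha, with 7 in the window shown and 2 in its second, was higher in ST2-high than in both other groups. Hif1an, with none, was lower in both ST2-high and ST2KO than ST2-low. A few genes picked by name cannot show whether matches go with levels, and this was not tested.

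All 3 HIF subunit genes were lower in ST2KO than in either wild-type group, and Epas1 had the largest difference of any of the 36 genes. Epas1, which encodes HIF-2alpha, was at 51.9, 44.1 and 46.3 CPM in ST2-low replicates 1 to 3, at 57.7, 46.8 and 49.3 CPM in ST2-high and at 6.19, 5.55 and 6.06 CPM in ST2KO. The ST2KO libraries lay far below all 6 wild-type libraries, which overlapped between their groups. The ST2KO values rest on 285, 95 and 74 counts. Epas1 was 7.92-fold lower in ST2KO than ST2-low (log2 fold change -2.99 ± 0.10, SE; adjusted p = 6.32e-21, edgeR) and 8.60-fold lower than ST2-high (-3.10 ± 0.10; adjusted p = 1.44e-21), and did not pass between the wild-type groups (0.12 ± 0.08; adjusted p = 0.305). In bulk RNA, fewer cells of a type that carries a transcript and less of it per cell cannot be told apart.

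The fall of Epas1 ran beside lower levels of many markers of other spleen cells in ST2KO, while a few were higher. Of 12 tested myeloid and dendritic markers, 10 were lower in ST2KO than ST2-low, and 11 were lower than ST2-high. Cd68 passed in neither comparison, and Itgam did not pass against ST2-low. The lysozyme gene Lyz2 averaged 33.6 CPM in ST2-low, 29.5 in ST2-high and 11.6 in ST2KO. The macrophage receptor gene Csf1r averaged 27.5, 20.2 and 5.84 CPM in the same order, and Mpeg1, the macrophage perforin gene, 33.8, 29.6 and 7.55 CPM. Of the 9 B cell markers, 5 were lower than ST2-low and 6 lower than ST2-high, with sums of 106 to 156 CPM in ST2-low, 122 to 150 CPM in ST2-high and 91.9 to 115 CPM in ST2KO. Over all 40 tested markers of other cells, 22 were lower in ST2KO than ST2-low (55%, against 29.3% of all tested genes) and 3 higher (7.5%, against 33%). Those 3 were the conventional T cell marker Cd40lg, at 16.75 CPM in ST2-low and 33.57 in ST2KO, and the neutrophil markers Cxcr2 and Mmp9. The counts against ST2-high were 22 lower (55%, against 32.6%) and 2 higher (5%, against 31.9%), and in ST2-high against ST2-low they were 7 lower (17.5%, against 10.8%) and 2 higher (5%, against 15.3%). The 7 lower in ST2-high became 3 without ST2-low replicate 3 and 4 without ST2-high replicate 1, and the 2 higher became 1 without ST2-low replicate 2, ST2-high replicate 1 or ST2-high replicate 2. The 2 higher in ST2KO than ST2-high, Cd40lg and Cxcr2, became 6 without ST2KO replicate 2. Of the 46 markers found, Klra8 and Hba-a1 were at 0 in every library. The part of such cells in the differences of Epas1 and of the other genes lower in ST2KO was not tested.

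Hif1a, the gene of HIF-1alpha, was the most abundant of the 36 genes in CPM. It was at 608.7, 589.5 and 575.1 CPM in ST2-low, at 701.4, 665.9 and 639.8 CPM in ST2-high and at 411.0, 469.4 and 440.3 CPM in ST2KO. The 3 groups did not overlap, with ST2-high on top. Hif1a was 1.34-fold lower in ST2KO than ST2-low (log2 -0.43 ± 0.05; adjusted p = 6.52e-08, edgeR) and 1.52-fold lower than ST2-high (-0.61 ± 0.05; adjusted p = 4.93e-11). It was 1.13-fold higher in ST2-high than ST2-low (0.18 ± 0.05; adjusted p = 0.0134), a call that was lost without ST2-low replicate 2 (adjusted p = 0.0531), ST2-low replicate 3 (0.0790) or ST2-high replicate 1 (0.107).

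Arnt, the shared partner of both alpha subunits, was at 156.2, 169.8 and 155.7 CPM in ST2-low, at 145.1, 136.6 and 164.2 CPM in ST2-high and at 81.1, 88.4 and 80.8 CPM in ST2KO. Its wild-type groups overlapped (log2 -0.11 ± 0.06; adjusted p = 0.179, edgeR), and the ST2KO libraries lay below all of them. Arnt was 1.92-fold lower in ST2KO than ST2-low (adjusted p = 5.56e-14) and 1.78-fold lower than ST2-high (adjusted p = 9.36e-13). Without ST2-high replicate 3, the ST2-high library with the most Arnt, Arnt was also called lower in ST2-high than ST2-low (log2 -0.19; adjusted p = 0.00909).

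Among the genes that control HIF, Egln3 followed the ST2 sort and 4 of 5 were lower in ST2KO. Egln3 encodes the prolyl hydroxylase PHD3, itself a known HIF target. It was at 17.3, 18.5 and 15.7 CPM in ST2-low, at 44.4, 38.3 and 40.6 CPM in ST2-high and at 9.31, 8.83 and 10.3 CPM in ST2KO. The groups did not overlap, with ST2-high on top and ST2KO lowest. Egln3 was 2.40-fold higher in ST2-high than ST2-low (log2 1.26 ± 0.09; adjusted p = 3.23e-12, edgeR), 1.82-fold lower in ST2KO than ST2-low (-0.87 ± 0.10; adjusted p = 2.03e-08) and 4.38-fold lower in ST2KO than ST2-high (-2.13 ± 0.10; adjusted p = 6.18e-18).

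The other prolyl hydroxylase genes, Egln1 and Egln2, did not pass between the wild-type groups (adjusted p = 0.530 and 0.289, edgeR). Egln1, which encodes PHD2, the main oxygen sensor of most cells, was at 61.1, 53.2 and 52.9 CPM in ST2-low, at 58.7, 59.5 and 56.3 CPM in ST2-high and at 67.0, 64.6 and 63.6 CPM in ST2KO. It was the only HIF control gene higher in ST2KO, by 1.17-fold against ST2-low (adjusted p = 0.00321, edgeR) and by 1.12-fold against ST2-high (adjusted p = 0.0283). Egln2, the gene of PHD1, averaged 69.0 ± 3.60, 74.1 ± 2.7 and 49.2 ± 4.88 CPM in ST2-low, in ST2-high and in ST2KO. It was 1.40-fold and 1.503-fold lower in ST2KO (adjusted p = 3.86e-07 and 9.98e-09). The small rise of Egln1 in ST2KO over ST2-low was lost without ST2-low replicate 2 (adjusted p = 0.0564). Its rise over ST2-high was lost without ST2-low replicate 2, ST2-high replicate 1, ST2-high replicate 3 or ST2KO replicate 1, with adjusted p from 0.0720 to 0.135. Of the counts of the 3 Egln genes, Egln3 took 12.1% in ST2-low, 23.7% in ST2-high and 7.66% in ST2KO, shares that do not depend on how libraries are scaled.

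Vhl and Hif1an, both brakes on HIF, were also lower in ST2KO. Vhl, which encodes the subunit that recognises hydroxylated HIF, averaged 29.5 ± 0.72 CPM in ST2-low, 30.8 ± 3.21 in ST2-high and 19.2 ± 0.79 in ST2KO. It was 1.54-fold lower in ST2KO than ST2-low and 1.60-fold lower than ST2-high (adjusted p = 4.22e-07 and 6.87e-08, edgeR). Hif1an encodes FIH, an asparagine hydroxylase that blocks HIF from its coactivators. It was at 167.6, 176.2 and 166.0 CPM in ST2-low, at 146.5, 151.5 and 158.7 CPM in ST2-high and at 99.1, 101.2 and 103.1 CPM in ST2KO. The 3 groups stepped down without overlap, by 1.12-fold from ST2-low to ST2-high (adjusted p = 0.0190) and by 1.68-fold from ST2-low to ST2KO (adjusted p = 1.33e-13). The step between the wild-type groups was lost without ST2-low replicate 2 (adjusted p = 0.104) or ST2-high replicate 1 (0.113).

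**Figure D2:**
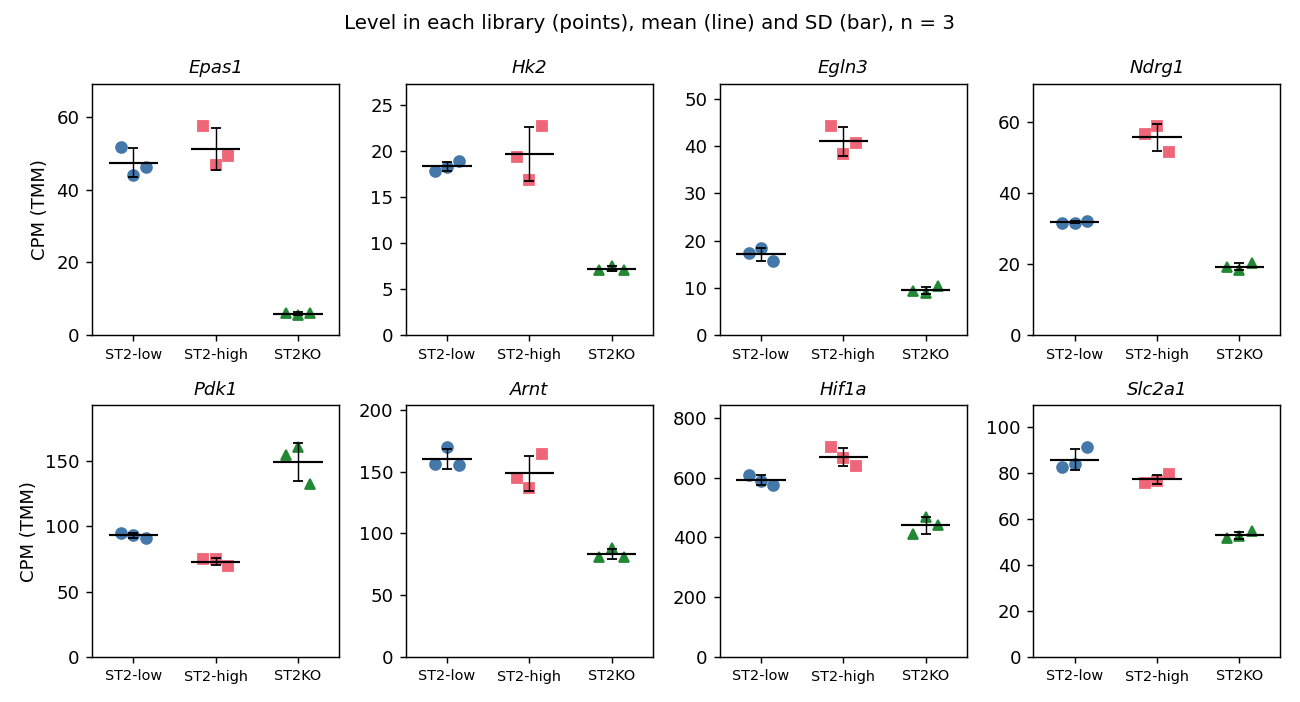
TMM-scaled CPM (vertical axis, from 0) of Epas1, Hk2, Egln3, Ndrg1, Pdk1, Arnt, Hif1a and Slc2a1 in each of the 9 libraries, by group; points are libraries, lines the group mean and bars the SD. The ST2KO points lie below both wild-type groups in every panel except that of Pdk1, where they lie above, and Egln3 and Ndrg1 are highest in ST2-high.

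The glucose transporter genes moved apart in ST2KO. Slc2a1 encodes GLUT1, the transporter that T cells raise on activation. It was at 82.4, 83.8 and 91.1 CPM in ST2-low, at 75.7, 76.4 and 79.4 CPM in ST2-high and at 51.7, 52.5 and 54.6 CPM in ST2KO. The groups did not overlap, and Slc2a1 was 1.62-fold lower in ST2KO than ST2-low (adjusted p = 2.03e-11, edgeR) and 1.46-fold lower than ST2-high (adjusted p = 3.84e-09). Between the wild-type groups it did not pass (log2 -0.15 ± 0.06; adjusted p = 0.0537), though it was called lower in ST2-high without ST2-high replicate 3 (adjusted p = 0.0331) or ST2KO replicate 3 (0.0494) and under 5 of the other alternatives. Slc2a3, the gene of the high-affinity transporter GLUT3, was at 94.0, 98.6 and 99.4 CPM in ST2-low, at 101.7, 112.8 and 107.3 CPM in ST2-high and at 122.2, 116.3 and 101.9 CPM in ST2KO. It was 1.17-fold higher in ST2KO than ST2-low (adjusted p = 0.00172) and did not pass against ST2-high (adjusted p = 0.191; 0.0233 without ST2KO replicate 3 and 0.0147 with upper-quartile factors). Of the counts of both transporters together, Slc2a1 took 46.8 ± 0.96% in ST2-low, 41.9 ± 1.29% in ST2-high and 31.9 ± 2.67% in ST2KO.

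Of the 16 glycolytic enzyme genes, 6 were higher in ST2-high than ST2-low (37.5%, against 15.3% of all tested genes). Pgk1 and Ldha were called so under all 16 alternatives, while the call was lost under 12 for Hk1, 8 for Aldoc, 3 for Tpi1 and 1 for Aldoa. In ST2KO, 7 of the 16 genes were lower than ST2-low (43.8%, against 29.3% of all) and 1 higher (6.25%, against 33% of all). Set against ST2-high, 9 were lower (56.2%, against 32.6% of all) and 2 higher (12.5%, against 31.9% of all). Their summed level was 1352, 1350 and 1402 CPM in the ST2-low libraries, 1486, 1519 and 1470 CPM in ST2-high and 1217, 1201 and 1214 CPM in ST2KO. The sums of the groups did not overlap, and ST2-high was on top. The same order held for the sum of the 3 HIF subunit genes (799.1 ± 20.2, 868.9 ± 30.6 and 529.6 ± 32.6 CPM) and of the 5 HIF control genes (341.2 ± 7.41, 356.4 ± 9.02 and 244.2 ± 6.69 CPM). Neither of these sums overlapped between groups. From ST2-low to ST2-high, Hif1a was the only subunit gene called higher (591.1 to 669 CPM), while Arnt and Epas1 did not pass. Among the control genes, Egln3 was called higher (17.2 to 41.1 CPM) and Hif1an lower (169.9 to 152.2 CPM), while Egln1, Egln2 and Vhl did not pass. The wild-type order of these sums is therefore not that of each gene.

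**Figure D3:**
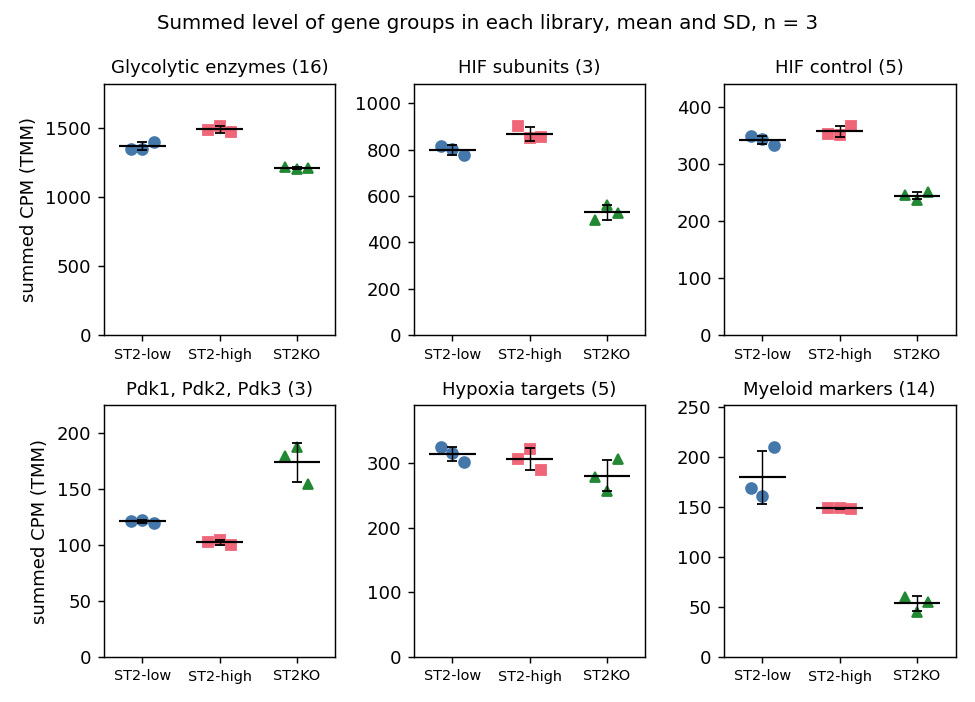
Summed TMM-scaled CPM (vertical axis, from 0) in each library, by group, over the glycolytic enzyme genes (16), HIF subunit genes (3), HIF control genes (5), pyruvate dehydrogenase kinase genes (3), hypoxia-induced genes (5) and myeloid and dendritic markers (14). ST2KO is lowest for the glycolytic enzymes, the HIF subunits, the HIF control genes and the myeloid markers (45.3 to 60.2 CPM), and highest for the kinases (154 to 187 CPM).

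The hexokinases, which trap glucose as its phosphate, differed in opposite directions between ST2KO and ST2-low. Hk2 encodes the inducible hexokinase of activated lymphocytes and tumours. It was at 17.8, 18.3 and 18.8 CPM in ST2-low, at 19.3, 16.9 and 22.7 CPM in ST2-high and at 7.10, 7.48 and 7.04 CPM in ST2KO. The wild-type groups overlapped, and ST2KO lay below both by 2.54-fold (log2 -1.35 ± 0.12; adjusted p = 3.04e-11, edgeR) and 2.72-fold (-1.44 ± 0.12; adjusted p = 5.25e-12). Hk1, the constitutive hexokinase gene, was at 108.7, 104.7 and 117.2 CPM in ST2-low, at 123.3, 120.8 and 121.3 CPM in ST2-high and at 135.4, 128.2 and 131.9 CPM in ST2KO. It was 1.197-fold higher in ST2KO than ST2-low (adjusted p = 0.000102) and did not pass against ST2-high (adjusted p = 0.0580; 0.00195 with upper-quartile factors). Hk1 was 1.11-fold higher in ST2-high than ST2-low (adjusted p = 0.0446), a call lost under 12 of the 16 alternatives, which included leaving out replicate 1 or 2 of any group (adjusted p from 0.0510 to 0.234). Hk2 made up 14.3 ± 0.52% of the hexokinase counts in ST2-low, 13.9 ± 1.79% in ST2-high and 5.19 ± 0.29% in ST2KO.

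Phosphofructokinase, the committed step of glycolysis, is built from 3 kinds of subunit. Pfkp, the platelet-type subunit gene, was at 131.1, 147.9 and 143.6 CPM in ST2-low, at 137.9, 140.1 and 158.6 CPM in ST2-high and at 92.3, 91.6 and 92.1 CPM in ST2KO. It was 1.53-fold and 1.58-fold lower in ST2KO than ST2-low and ST2-high (adjusted p = 1.90e-10 and 3.72e-11, edgeR). Pfkl, the liver-type subunit gene, averaged 72.6 ± 3.04, 69.7 ± 2.5 and 54.2 ± 1.05 CPM and was 1.34-fold and 1.29-fold lower in ST2KO (adjusted p = 5.15e-07 and 5.33e-06). Pfkm, the muscle-type subunit gene, ran the other way at 11.3 ± 1.67, 8.92 ± 1.05 and 13.5 ± 1.11 CPM. It was 1.51-fold higher in ST2KO than ST2-high (adjusted p = 0.000240) and did not pass against ST2-low (adjusted p = 0.0895) or between the wild-type groups (adjusted p = 0.0581). It was called higher in ST2KO than ST2-low without ST2-low replicate 3 (0.0267), and lower in ST2-high than ST2-low without ST2-low replicate 1 (0.0303) or ST2-high replicate 3 (0.0455). Pfkm took 5.02%, 3.98% and 8.46% of the counts of the 3 subunit genes in ST2-low, ST2-high and ST2KO.

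In the middle steps, Pgk1 and Tpi1 were highest in ST2-high, and Gapdh was lowest in ST2KO. Gapdh, the gene of glyceraldehyde-3-phosphate dehydrogenase and a common reference transcript, was at 282.5, 280.4 and 303.6 CPM in ST2-low, at 311.1, 333.0 and 290.5 CPM in ST2-high and at 213.9, 216.7 and 202.5 CPM in ST2KO. It was 1.37-fold lower in ST2KO than ST2-low and 1.48-fold lower than ST2-high (adjusted p = 2.59e-08 and 2.95e-10, edgeR), and did not pass between the wild-type groups (adjusted p = 0.145), where it was called higher in ST2-high without ST2-high replicate 3 (adjusted p = 0.0214). Pgk1, which makes the first ATP of the pathway, averaged 40.9 ± 3.0, 49.2 ± 2.91 and 36.3 ± 1.86 CPM. It was 1.21-fold higher in ST2-high than ST2-low (adjusted p = 0.00522) and 1.36-fold lower in ST2KO than ST2-high (adjusted p = 3.72e-06). Tpi1, the triose phosphate isomerase gene, was at 27.4, 33.9 and 37.1 CPM in ST2-low, at 37.8, 43.3 and 39.1 CPM in ST2-high and at 28.7, 23.6 and 27.8 CPM in ST2KO. It was 1.22-fold higher in ST2-high than ST2-low (adjusted p = 0.0264) and 1.49-fold lower in ST2KO than ST2-high (adjusted p = 8.38e-06).

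Several of these smaller differences were lost without a single library or with another scaling or test. The rise of Tpi1 in ST2-high was lost without ST2-low replicate 1 (adjusted p = 0.208, edgeR) or ST2-high replicate 2 (0.116), and with DESeq2's Wald test (0.0522). Its 1.22-fold lower level in ST2KO than ST2-low (adjusted p = 0.0114) was lost without ST2-low replicate 3 (0.118) or ST2KO replicate 2 (0.0782) and with upper-quartile factors (0.0501). The 1.13-fold lower level of Pgk1 in ST2KO than ST2-low (adjusted p = 0.0383) was lost without ST2-low replicate 1 (0.229), ST2KO replicate 1 (0.108) or ST2KO replicate 2 (0.129), and with upper-quartile factors (log2 -0.11; 0.210). Pgk1 shares 53.9% of its 50-base stretches with other annotated genes, so its counts depend on how the authors assigned such reads.

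The aldolases were both higher in ST2-high. Aldoa, the main aldolase gene, was at 143.2, 133.9 and 140.8 CPM in ST2-low, at 157.1, 160.4 and 159.1 CPM in ST2-high and at 135.1, 137.2 and 154.9 CPM in ST2KO. It was 1.14-fold higher in ST2-high than ST2-low (adjusted p = 0.00939, edgeR; 0.0743 without ST2-low replicate 2) and 1.12-fold lower in ST2KO than ST2-high (adjusted p = 0.0105). The second call was lost with upper-quartile factors (log2 -0.08; adjusted p = 0.185), without ST2KO replicate 1 (0.0934) or without ST2KO replicate 2 (0.0552). Aldoc, at 2.46 ± 0.55, 3.82 ± 0.47 and 2.83 ± 0.64 CPM, was 1.55-fold higher in ST2-high than ST2-low (adjusted p = 0.0439). That call was lost under 8 of the 16 alternatives, among them leaving out ST2-low replicate 1 or 2, ST2-high replicate 1 or 2 or ST2KO replicate 1 (adjusted p from 0.0535 to 0.179).

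The remaining enzymes of the pathway differed little. Gpi1, the phosphoglucose isomerase gene, averaged 244.3 ± 9.997, 260.9 ± 10.3 and 233.8 ± 4.73 CPM and was 1.12-fold lower in ST2KO than ST2-high (adjusted p = 0.00767, edgeR; 0.171 with upper-quartile factors). Eno3, the muscle-type enolase gene, averaged 15.9 ± 1.58, 13.6 ± 1.82 and 17.2 ± 1.62 CPM and was 1.29-fold higher in ST2KO than ST2-high (adjusted p = 0.00693; 0.118 without ST2-high replicate 1), and was called lower in ST2-high than ST2-low only without ST2-high replicate 3 (0.0419). Pgam1, the phosphoglycerate mutase gene, averaged 9.62 ± 0.62, 11.4 ± 0.82 and 9.75 ± 1.05 CPM and passed in no comparison, except that it was called lower in ST2KO than ST2-high without ST2-high replicate 3 (adjusted p = 0.0353) or ST2KO replicate 3 (0.0440). Eno1, which encodes the main enolase of most cells, was listed at only 0.140 to 0.648 CPM in the 9 libraries and passed in no comparison. Eno1 shares 25.3% of its 50-base stretches with the near-identical copy Eno1b, and how the authors' counting treated such reads is not given in the sources used here. In all, 7 of the 36 genes share over 20% of their 50-base stretches with other genes of the GENCODE M21 transcripts, namely Pgk1, Bnip3 (47.2%), Pgam1 (36.2%), Eno1, Gapdh (25.1%), Ldhb and Bnip3l, so their levels are uncertain, while 15 share none, among them Epas1, Hk2, Arnt, Egln1, Egln2, Egln3, Vhl, Hif1an and Pdk1.

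Of the lactate dehydrogenase genes, Ldha was highest in ST2-high. Ldha, whose enzyme form favours lactate formation, was at 213.4, 218.7 and 225.5 CPM in ST2-low, at 252.6, 267.4 and 251.9 CPM in ST2-high and at 220.4, 202.7 and 216.9 CPM in ST2KO. ST2-high lay above both other groups, which overlapped. Ldha was 1.17-fold higher in ST2-high than ST2-low (log2 0.23 ± 0.05; adjusted p = 0.000894, edgeR) and 1.21-fold lower in ST2KO than ST2-high (adjusted p = 3.59e-05), with no call between ST2KO and ST2-low (-0.04 ± 0.05; adjusted p = 0.531). Ldhb averaged 21.0 ± 0.79, 19.0 ± 0.57 and 18.1 ± 1.45 CPM. Its 1.16-fold lower level in ST2KO than ST2-low (adjusted p = 0.0483) was lost under 9 of the 16 alternatives, with adjusted p from 0.0526 to 0.139 without ST2-low replicate 1 or 3, ST2-high replicate 2 or ST2KO replicate 1 or 3. Ldhb took 8.76 ± 0.41%, 6.88 ± 0.28% and 7.83 ± 0.87% of the counts of both subunit genes in ST2-low, ST2-high and ST2KO.

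Levels per kilobase of exon set genes side by side only as far as the annotated exon length is the length these cells transcribe. Here the leading isozyme was the same in all 3 groups for the hexokinases, lactate dehydrogenases, HIF alpha subunits, Pfkfb enzymes and Bnip3 paralogs. Hif1a stood at 100.3, 113.5 and 74.7 CPM per kb in ST2-low, in ST2-high and in ST2KO, far above Epas1 at 8.48, 9.17 and 1.06 CPM per kb. Ldha stood at 66.2, 77.7 and 64.5 CPM per kb and Ldhb at 13.4, 12.1 and 11.5. For the transporters the order of the means turned: Slc2a1 was above Slc2a3 in ST2-low (24.5 against 13.4 CPM per kb) and ST2-high (22.0 against 14.8), while in ST2KO they were at 15.1 and 15.7 CPM per kb. Hk1 stood at 12.9, 14.3 and 15.5 CPM per kb and Hk2 at 3.07, 3.29 and 1.21. Pfkl and Pfkp were close in the wild-type groups (10.9 and 10.5 CPM per kb in ST2-low, 10.4 and 10.9 in ST2-high), and in ST2KO Pfkl was at 8.13 and Pfkp at 6.87. Among the kinases, Pdk1 led Pdk3 in ST2-low (11.98 against 8.72 CPM per kb) and ST2KO (19.2 against 6.94), and the pair was close in ST2-high (9.39 and 9.61). Among the prolyl hydroxylases, Egln2 led in ST2-low (24.6 CPM per kb) and ST2-high (26.5), and in ST2KO Egln2 and Egln1 were close at 17.6 and 18.1 CPM per kb. Differences in order between genes were not tested. The lengths are those of the union of annotated exons and not of the isoforms these cells use. They were 6675 bases for Pfkl and 13401 for Pfkp, and 3506 for Slc2a1 and 7245 for Slc2a3. In CPM, Pfkp was above Pfkl and Slc2a3 above Slc2a1 in every group, so the orders within these sets depend on the lengths.

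**Figure D4:**
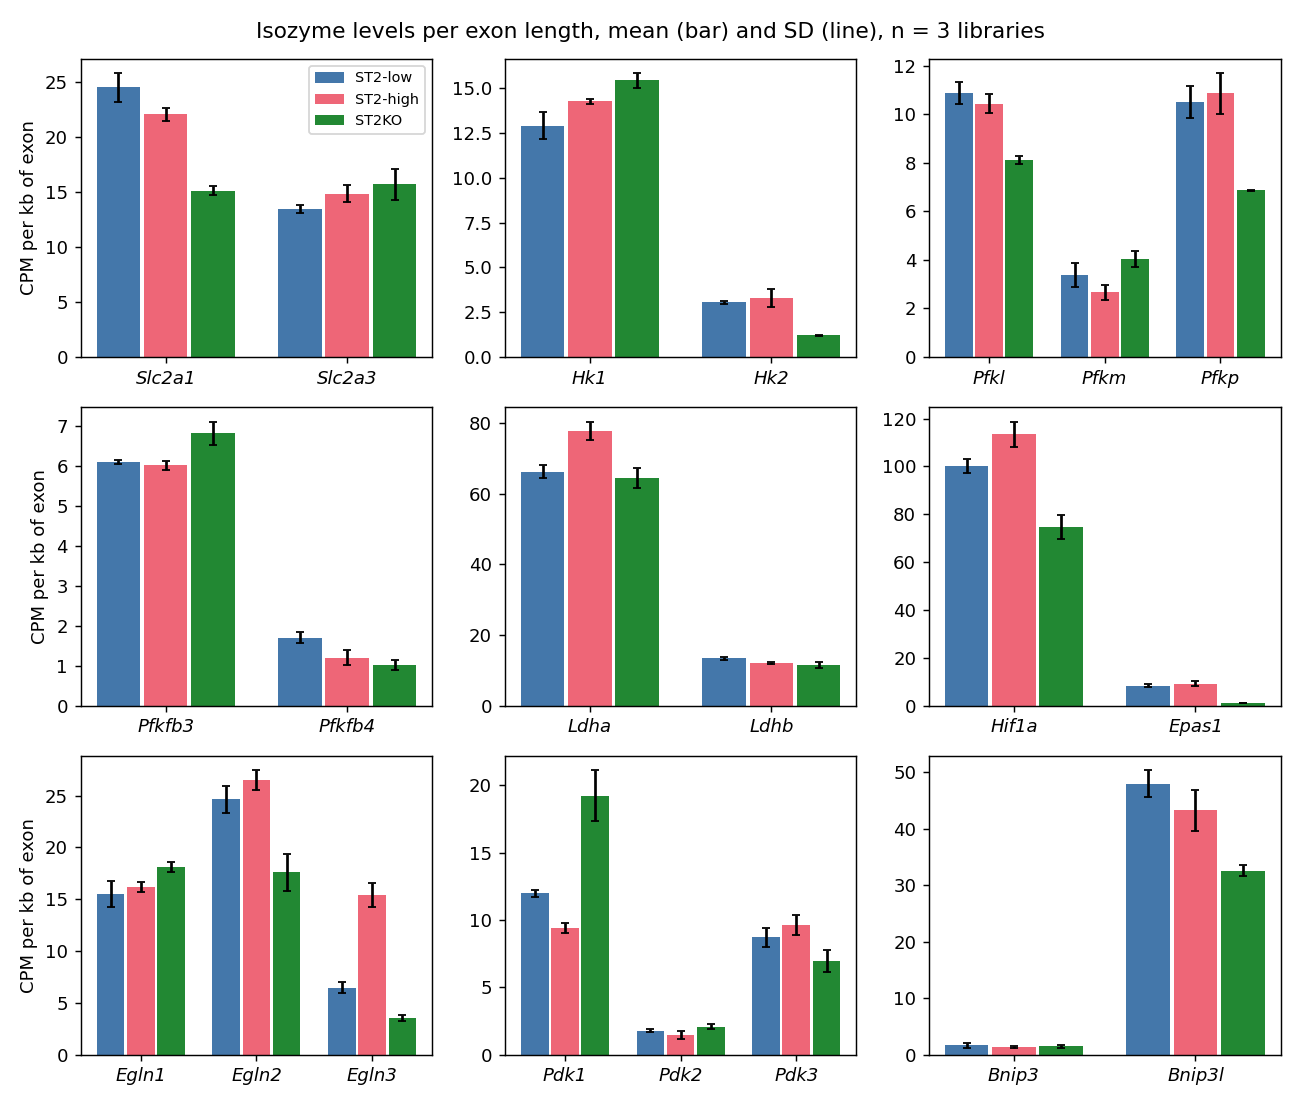
Mean CPM per kilobase of annotated exon (vertical axis, bars from 0, with SD bars, n = 3) for 9 sets of isozymes or paralogs, by group. Hif1a exceeds Epas1 in every group and Slc2a1 exceeds Slc2a3 in the wild-type groups only (24.5 against 13.4 CPM per kb in ST2-low, 15.1 against 15.7 in ST2KO). The order of Slc2a1 and Slc2a3 depends on the annotated exon lengths.

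Of the bifunctional enzymes that make and break fructose-2,6-bisphosphate, an activator of phosphofructokinase, Pfkfb4 was lower in ST2-high and in ST2KO. It was at 8.65, 7.56 and 8.74 CPM in ST2-low, at 6.91, 5.39 and 5.34 CPM in ST2-high and at 4.58, 5.67 and 4.75 CPM in ST2KO. ST2-low lay above the other two groups, which overlapped. Pfkfb4 was 1.68-fold lower in ST2KO than ST2-low (adjusted p = 0.000206, edgeR) and 1.40-fold lower in ST2-high than ST2-low (adjusted p = 0.0242). The second call was lost without ST2-low replicate 1 or 3 or ST2-high replicate 2 or 3 (adjusted p from 0.0696 to 0.0943). Pfkfb3, the strongly kinase-active form, was at 45.8, 46.1 and 46.5 CPM in ST2-low, at 44.6, 45.3 and 46.3 CPM in ST2-high and at 52.6, 52.9 and 48.9 CPM in ST2KO. Its 1.12-fold higher level in ST2KO than ST2-low (adjusted p = 0.0274) was lost under 11 of the 16 alternatives, among them leaving out any ST2-low replicate, ST2-high replicate 1 or 3 or ST2KO replicate 1 or 2 (adjusted p from 0.0532 to 0.128). Its 1.14-fold higher level than ST2-high (adjusted p = 0.0122) was lost without ST2-high replicate 1 (0.0924) or ST2KO replicate 1 (0.0603).

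Pdk1 had its highest level in ST2KO and its lowest in ST2-high. It encodes a pyruvate dehydrogenase kinase that diverts pyruvate from mitochondria and is a known HIF-1 target. Pdk1 was at 95.2, 93.4 and 91.0 CPM in ST2-low, at 74.7, 74.7 and 69.8 CPM in ST2-high and at 154.9, 160.7 and 132.8 CPM in ST2KO. The groups did not overlap. Pdk1 was 1.27-fold lower in ST2-high than ST2-low (log2 -0.35 ± 0.06; adjusted p = 6.56e-05, edgeR), 1.61-fold higher in ST2KO than ST2-low (0.69 ± 0.06; adjusted p = 3.88e-11) and 2.05-fold higher in ST2KO than ST2-high (1.03 ± 0.06; adjusted p = 3.89e-15). Egln3 and Ndrg1, also known HIF-1 targets, had the opposite order of groups.

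The other kinase genes were less abundant. Pdk3 was at 20.3, 23.3 and 23.5 CPM in ST2-low, at 22.4, 25.7 and 25.6 CPM in ST2-high and at 18.0, 19.8 and 15.6 CPM in ST2KO. It was 1.248-fold and 1.37-fold lower in ST2KO (adjusted p = 0.00638 and 0.000213, edgeR). Pdk2 averaged 5.64 ± 0.36, 4.68 ± 0.94 and 6.61 ± 0.48 CPM, and its 1.40-fold higher level in ST2KO than ST2-high (adjusted p = 0.0144) was lost without ST2-high replicate 2 (0.0813), ST2-high replicate 3 (0.0595) or ST2KO replicate 1 (0.0590). Pdk1 took 76.9 ± 1.36% of the counts of the 3 kinase genes in ST2-low, 71.4 ± 1.32% in ST2-high and 86.0 ± 0.19% in ST2KO.

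The 5 genes known to be induced by hypoxia had no common direction. Ndrg1, a stress and differentiation gene that hypoxia induces in many cells, was at 31.6, 31.6 and 32.0 CPM in ST2-low, at 56.5, 58.9 and 51.4 CPM in ST2-high and at 19.2, 18.4 and 20.3 CPM in ST2KO. The groups did not overlap, with the same order as for Egln3. Ndrg1 was 1.75-fold higher in ST2-high than ST2-low (log2 0.81 ± 0.07; adjusted p = 3.83e-10, edgeR), 1.65-fold lower in ST2KO than ST2-low (-0.73 ± 0.08; adjusted p = 3.23e-09) and 2.90-fold lower in ST2KO than ST2-high (adjusted p = 4.56e-17). P4ha1 encodes the catalytic subunit of collagen prolyl 4-hydroxylase. It was at 93.2, 91.4 and 89.4 CPM in ST2-low, at 74.9, 80.4 and 82.3 CPM in ST2-high and at 128.9, 104.2 and 160.6 CPM in ST2KO.

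The ST2KO libraries spread widely for P4ha1, and all 3 lay above the wild-type libraries. It was 1.43-fold higher in ST2KO than ST2-low (log2 0.52 ± 0.14; adjusted p = 0.0104, edgeR; 0.0747 with only those 6 samples in the fit) and 1.65-fold higher than ST2-high (0.72 ± 0.14; adjusted p = 0.00177). Between the wild-type groups, whose libraries did not overlap, it did not pass (adjusted p = 0.337, edgeR). It was called lower in ST2-high under 3 of the 16 alternatives. These included leaving out ST2KO replicate 2 (0.0208) or ST2KO replicate 3 (0.0205), libraries that enter this comparison only through the shared fit. Bnip3l, a mitophagy receptor gene, was at 193.1, 187.3 and 175.4 CPM in ST2-low, at 169.9, 179.3 and 151.6 CPM in ST2-high and at 125.7, 129.8 and 122.1 CPM in ST2KO. It was 1.47-fold and 1.33-fold lower in ST2KO (adjusted p = 1.10e-09 and 3.72e-07). Between the wild-type groups it did not pass (adjusted p = 0.0526), but it was called lower in ST2-high under 8 of the 16 alternatives, namely without ST2-low replicate 3 (0.0400), without ST2-high replicate 2 (0.0109), and with DESeq2 size factors, upper-quartile factors, no filter, DESeq2's Wald test, the replicate block or no Rn45s (adjusted p from 0.0222 to 0.0433).

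Bnip3 and Ankrd37 were near the lower end of the range of levels. Bnip3, the paralog of Bnip3l and a classic hypoxia-induced gene, averaged 3.74 ± 1.10, 3.14 ± 0.42 and 3.34 ± 0.49 CPM and passed in no comparison. Per kilobase of exon, Bnip3 stood at 1.65, 1.39 and 1.48 CPM and Bnip3l at 48.0, 43.3 and 32.6 CPM in ST2-low, in ST2-high and in ST2KO. Ankrd37, a small ankyrin-repeat gene, averaged 2.82 ± 0.39, 1.89 ± 0.19 and 1.53 ± 0.41 CPM. It was 1.77-fold lower in ST2KO than ST2-low (log2 -0.82 ± 0.27; adjusted p = 0.00889, edgeR) and did not pass between the wild-type groups (adjusted p = 0.117), whose libraries did not overlap.

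Beyond the 36 genes, a longer list of glycolysis, pentose phosphate, pyruvate and hypoxia genes had 67 genes in the files, of which 53 passed the filter on low counts. Of these 53, 13 were higher (24.5%, against 15.3% of all tested genes) and 6 lower (11.3%, against 10.8%) in ST2-high than ST2-low. In ST2KO, 11 were higher than ST2-low (20.8%, against 33%) and 20 lower (37.7%, against 29.3%). Set against ST2-high, 11 were higher (20.8%, against 31.9%) and 26 lower (49.1%, against 32.6%). The number higher in ST2KO than ST2-high was 6 without ST2-high replicate 3. The genes named from it are up to 4 a comparison and direction with the largest change among those whose higher group averaged at least 5 CPM.

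The largest falls of that list in ST2KO were those of Mxi1, Slc16a3 and Vegfa. Slc16a3, which encodes the lactate exporter MCT4, was at 98.8, 101.3 and 103.9 CPM in ST2-low, at 64.97, 68.5 and 74.1 CPM in ST2-high and at 9.79, 11.9 and 10.6 CPM in ST2KO. It was 9.58-fold lower in ST2KO than ST2-low (adjusted p = 1.01e-24, edgeR), 6.52-fold lower than ST2-high and 1.47-fold lower in ST2-high than ST2-low (adjusted p = 6.77e-08). Mxi1, a repressor that opposes Myc, was at 178.8, 185.4 and 181.7 CPM in ST2-low, at 235.2, 205.5 and 212.9 CPM in ST2-high and at 29.5, 28.8 and 30.1 CPM in ST2KO. It was 6.18-fold and 7.41-fold lower in ST2KO. Vegfa, the gene of the angiogenic factor VEGF-A, was at 11.1, 10.6 and 13.1 CPM in ST2-low, at 10.2, 8.29 and 9.23 CPM in ST2-high and at 1.91, 1.81 and 2.29 CPM in ST2KO. It was 5.90-fold and 4.71-fold lower in ST2KO.

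The transcription factor gene Bhlhe40 followed the same order as Egln3, at 385.9, 419.7 and 411.2 CPM in ST2-low, at 678.9, 636.9 and 658.7 CPM in ST2-high and at 146.0, 167.7 and 202.1 CPM in ST2KO. It was 1.62-fold higher in ST2-high than ST2-low (adjusted p = 1.70e-05, edgeR) and 3.85-fold lower in ST2KO than ST2-high. Hmox1, the heme oxygenase gene strongly transcribed in macrophages, averaged 35.3 ± 5.26, 21.2 ± 4.34 and 6.65 ± 1.46 CPM. It was 1.68-fold lower in ST2-high and 5.23-fold lower in ST2KO than ST2-low, beside the fall of the myeloid markers, whose part was not tested. Pfkfb2 and Kdm3a were 1.26-fold and 1.251-fold lower in ST2-high than ST2-low; for Pfkfb2 the call was lost without ST2-low replicate 2 (adjusted p = 0.0606).

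The largest rises among genes of that list with at least 5 CPM were smaller. Ddit4, an inhibitor of the growth kinase mTORC1, averaged 35.7 ± 2.57, 64.8 ± 6.0 and 63.4 ± 5.87 CPM. It was 1.81-fold higher in ST2-high (adjusted p = 5.52e-10, edgeR) and 1.78-fold higher in ST2KO (adjusted p = 1.37e-10) than ST2-low. Myc, a driver of growth and glycolytic gene transcription, averaged 36.8 ± 4.43, 59.6 ± 0.70 and 62.4 ± 3.32 CPM and was 1.62-fold and 1.70-fold higher than ST2-low. Arnt2, a paralog of Arnt, was 1.92-fold higher in ST2-high and 1.60-fold higher in ST2KO than ST2-low, while Plod1, a collagen lysyl hydroxylase gene, was 1.67-fold higher in ST2KO than ST2-low and 1.81-fold higher than ST2-high. Car12, Fam162a and Ep300 were 1.69-fold, 1.49-fold and 1.29-fold higher in ST2KO than ST2-high; for Fam162a the call was lost without ST2-high replicate 1 (adjusted p = 0.0608).

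Of the genes of that list under 5 CPM, Hif3a, Hk3 and Adm had larger called changes than some of those named above, and all were picked after their values were seen. Adm averaged 0.614, 1.02 and 0.267 CPM in ST2-low, in ST2-high and in ST2KO, where it rests on 10, 10 and 0 counts. It was 3.61-fold lower in ST2KO than ST2-high (adjusted p = 0.00519, edgeR) and did not pass against ST2-low (adjusted p = 0.0914). Hif3a, the gene of HIF-3alpha, another HIF alpha subunit, was at 1.03, 1.93 and 2.92 CPM in ST2-low, at 1.12, 1.04 and 1.05 CPM in ST2-high and at 2.82, 4.56 and 2.86 CPM in ST2KO. The ST2KO libraries lay above ST2-high and overlapped with ST2-low. Hif3a was 3.13-fold higher in ST2KO than ST2-high (log2 1.64 ± 0.32; adjusted p = 5.11e-05, edgeR), the largest called rise of the longer list. Its 1.71-fold higher level than ST2-low (adjusted p = 0.0237) was lost without ST2-low replicate 1 (0.172), ST2-low replicate 2 (0.0659) or ST2KO replicate 2 (0.168). Hk3, another hexokinase gene, averaged 2.29 ± 0.41, 1.27 ± 0.29 and 2.29 ± 0.15 CPM in ST2-low, in ST2-high and in ST2KO. It was 1.79-fold lower in ST2-high than ST2-low (adjusted p = 0.0296; lost without ST2-low replicate 2 or 3 or ST2-high replicate 1 or 3, at 0.0589 to 0.129) and 1.78-fold higher in ST2KO than ST2-high (adjusted p = 0.0130; 0.0528 without ST2-high replicate 3).

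Pkm, the pyruvate kinase gene and the last enzyme before pyruvate, lies outside the 36 genes and was chosen after its values were seen. It was at 434.1, 421.1 and 432.3 CPM in ST2-low, at 473.2, 481.9 and 463.1 CPM in ST2-high and at 336.0, 327.6 and 339.3 CPM in ST2KO. The groups did not overlap and had the order of the summed glycolytic enzymes. Pkm shares 25.8% of its 50-base stretches with other genes, so its levels are uncertain. Pkm was lower in ST2KO than ST2-low (log2 -0.36; adjusted p = 1.69e-07, edgeR) and ST2-high (-0.50; adjusted p = 2.52e-10). Its higher level in ST2-high than ST2-low (0.14; adjusted p = 0.0311) was lost without any single ST2-low replicate or ST2-high replicate 1 or 2 (adjusted p from 0.0640 to 0.133).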

How the data were processed

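RNA of sorted mouse spleen Tregs was measured in 9 samples, 3 a group by the genotype labels. The deposited values are whole-number counts, 1 file a sample and 1 row a gene symbol, not normalized, judged from the values. The aligner, genome build, annotation, strand setting and treatment of shared reads are all not given in the sources used here. In 27 rows the symbol had become a date (0.182% to 0.206% of counts), and these were left out; the ribosomal RNA precursor Rn45s took 12.1% to 17.0% of counts.

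The members and lists were chosen with earlier results of these data known. Counts were scaled with TMM factors and filtered with filterByExpr (minimum count 10, total 15), leaving 12219 genes. They were tested with edgeR 4.0.16 (with limma 3.58.1 under R 4.3.3) by glmQLFit with robust set and glmQLFTest, fitting 1 coefficient a group to all 9 samples without covariates. P-values were adjusted by Benjamini-Hochberg over these genes and called at 0.05. Folds are those of the fit. The fit was tested on counts simulated from its own estimates of spread, with a small part of the genes changed. Such counts cannot show how scaling and calls behave where many genes differ, as in the ST2KO comparisons.

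Named were all 36 genes, with full values for those called with a change of at least 2-fold whose higher group averaged at least 1 CPM, and for isozymes; of the longer list up to 4 a comparison and direction with the largest called change whose higher group averaged at least 5 CPM; Il1rl1 and Foxp3. Other genes are said to be chosen after their values were seen. Exon lengths and shared 50-base stretches came from GENCODE M21 and promoters from RefSeq GRCm38.p6. The 16 alternatives were DESeq2 size factors, upper-quartile factors, DESeq2 1.42.0's Wald test, no filter, fitting only the 6 samples compared, a replicate block, no Rn45s, and each of 9 libraries left out. Replicates differed beyond sampling noise, and each was counted once.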

Additional observations from a re-analysis of the deposited data

How the results depend on the processing

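Under the 16 alternatives, the 20 genes lower in ST2KO than ST2-low numbered 17 to 20 and the 20 lower than ST2-high 18 to 21, while the small differences between the wild-type groups moved most. The genes lower in ST2-high than ST2-low, 3 in the report, numbered 6 with DESeq2 size factors and 5 with each of upper-quartile factors, DESeq2's Wald test, the replicate block and no Rn45s. Leaving out 1 library gave 2 to 6 lower and 5 to 10 higher in that comparison, and 4 to 8 higher in ST2KO than ST2-high, 0 to 1 of them by 2-fold. In the longer list 6 to 11 were then higher in ST2KO than ST2-high. Of the markers of other cells, 1 to 2 were higher and 3 to 7 lower in ST2-high than ST2-low, and 2 to 6 higher in ST2KO than ST2-high. The mean summed glycolytic level was 1353 to 1398, 1479 to 1524 and 1199 to 1214 CPM in ST2-low, in ST2-high and in ST2KO with 1 library left out, 1607, 1744 and 1425 without Rn45s in the totals, 1461 in ST2-high and 1254 in ST2KO with upper-quartile factors, and 1197 in ST2KO with DESeq2 size factors. Except for Rn45s, which shrinks the totals, the cause was not tested.

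Correlations of deviations from the group means ran from -0.0788 to 0.131 for same-numbered samples. For samples with different numbers they ran from -0.150 to 0.109. With 3 libraries a group, such weak correlations cannot show whether the numbers pair samples, so pairing is not known. With the replicate block, 8 and 5 genes were higher and lower in ST2-high than ST2-low, 6 and 19 in ST2KO than ST2-low and 7 and 20 in ST2KO than ST2-high.

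Values that turned direction were called in neither setting; the ranges are over leaving out 1 library. In ST2-high against ST2-low, log2 fold changes ran from -0.0124 to 0.189 for Hk2, -0.0211 to 0.0826 for Pfkp, -0.00998 to 0.13 for Vhl, -0.427 to 0.0060 for Bnip3, -0.10 to 0.216 for Fam162a and -0.0404 to 0.0386 for Cul2. Cul2 was also at -0.0194 with DESeq2's size factors and Wald test, -0.0042 with upper-quartile factors and -0.0021 without Rn45s. In ST2KO against ST2-low, the ranges were -0.0330 to 0.0670 for Aldoa, -0.0753 to 0.0939 for Pgam1 and -0.330 to 0.10 for Bnip3, -0.137 to 0.126 for Hk3 and -0.0756 to 0.0128 for Rpia. Aldoa was at -0.0092 with DESeq2 size factors, -0.0096 with its Wald test and -0.0109 with only 6 samples. Upper-quartile factors gave Gpi1 0.0079, Pgam1 0.0626, Ldha 0.0322, Tkt 0.0402, Hk3 0.0541 and Rpia 0.0479, and the replicate block gave Hk3 0.00729. In ST2KO against ST2-high, the ranges were -0.26 to 1.05 for Eno1, -0.114 to 0.0455 for Ddit4 and -0.103 to 0.00945 for Taldo1, and upper-quartile factors gave Ldhb 0.0153, Ddit4 0.0606 and Taldo1 0.0321.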

Other observations

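The genes described here were chosen after their values were seen, from the longer list of glycolysis and hypoxia genes. In the pentose phosphate pathway, the 4 listed genes of the non-oxidative branch were higher in ST2-high than ST2-low, and differed from each other in ST2KO. Tkt, the transketolase gene, averaged 117.7 ± 4.77 CPM in ST2-low, 164.7 ± 4.30 in ST2-high and 115.1 ± 1.89 in ST2KO. It was higher in ST2-high than ST2-low (log2 0.49 ± 0.05; adjusted p = 8.63e-09, edgeR), lower in ST2KO than ST2-high (-0.52 ± 0.05; adjusted p = 4.07e-10) and did not pass between ST2KO and ST2-low (adjusted p = 0.627). Taldo1, Rpia and Rpe, the other genes of that branch in the list, were also higher in ST2-high than ST2-low (log2 0.28, 0.24 and 0.21; adjusted p = 0.00219, 0.0310 and 0.0356), calls that for Rpia and Rpe were lost with DESeq2 size factors (0.0522 and 0.0632), with its Wald test and without any of several single libraries (Rpia: ST2-low replicate 1 or 2 or ST2-high replicate 1 or 3; Rpe: ST2-low replicate 1 or 3 or ST2-high replicate 1). In ST2KO, Rpe was highest, at 44.0 ± 2.9 CPM against 32.0 ± 1.44 in ST2-low and 37.0 ± 1.53 in ST2-high (adjusted p = 3.79e-06 and 0.00438). Taldo1 was higher in ST2KO than ST2-low (log2 0.23; adjusted p = 0.00376; 0.0619 without ST2-low replicate 2 and 0.0554 without ST2KO replicate 1) and did not pass against ST2-high (adjusted p = 0.553). Rpia was lower in ST2KO than ST2-high (log2 -0.26; adjusted p = 0.00689; 0.0530 with upper-quartile factors) and did not pass against ST2-low (adjusted p = 0.835). The oxidative branch genes G6pdx, Pgd and Pgls did not pass between the wild-type groups (adjusted p = 0.951, 0.718 and 0.655). G6pdx was lower in ST2KO than ST2-low (log2 -0.28, adjusted p = 0.00271, edgeR) and ST2-high (-0.29, adjusted p = 0.00190). Pgd and Pgls passed in neither ST2KO comparison.

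Pdp1 encodes a phosphatase that undoes the mark that pyruvate dehydrogenase kinases set, and it was lower in ST2KO than both wild-type groups, where Pdk1 was higher. Pdp1 averaged 45.8 ± 1.13 CPM in ST2-low, 49.6 ± 3.15 in ST2-high and 17.3 ± 1.41 in ST2KO. It was lower in ST2KO than ST2-low (log2 -1.41 ± 0.08; adjusted p = 8.72e-16, edgeR) and than ST2-high (-1.53 ± 0.08; adjusted p = 9.17e-17), and did not pass between the wild-type groups (0.12 ± 0.07; adjusted p = 0.253), where Pdk1 was called lower in ST2-high. Its paralog Pdp2 passed in none of the 3 comparisons (adjusted p = 0.579, 0.167 and 0.548 for ST2-high against ST2-low, ST2KO against ST2-low and ST2KO against ST2-high). Mpc1, a subunit of the mitochondrial pyruvate carrier, was also lower in ST2KO than ST2-low (-0.69 ± 0.14; adjusted p = 0.000103) and ST2-high (-0.87 ± 0.14; adjusted p = 2.75e-06), while the other subunit gene, Mpc2, did not pass (adjusted p = 0.919 and 0.731).

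Cul2, the scaffold of the ubiquitin ligase that VHL joins, averaged 92.2 ± 3.72 CPM in ST2-low, 92.3 ± 4.78 in ST2-high and 35.1 ± 2.37 in ST2KO. It was lower in ST2KO than in both (log2 -1.39 ± 0.07 in each comparison; adjusted p = 1.26e-17 and 9.00e-18, edgeR). Of its other partners in the list, Tceb1 was lower in ST2KO (log2 -0.21 and -0.34; adjusted p = 0.0441 and 0.00129), and Rbx1 and Tceb2 did not pass in either comparison (adjusted p from 0.589 to 0.963).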
